A study of Mus musculus with 6 samples.

Results

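Muscle is a main site of the first steps in the breakdown of leucine, isoleucine and valine, the branched-chain amino acids. The 10 genes described here encode enzymes of that route and the kinase that controls it. They were chosen by symbol, and all 10 were found among the 13226 genes of the deposited count table. RNA was measured in whole tibialis anterior (TA) muscles of male C57BL/6 mice aged 8 weeks. A muscle received an AAV6 vector by intramuscular injection and was taken 7 days later, the contralateral muscles of 3 animals serving as the 2 groups of 3 muscles each. The treated group received AAV6:Yap-shRNA, a short hairpin RNA against Yap that had been cloned, by the treatment notes, into a plasmid with a CMV promoter and eGFP. The CMV promoter is not particular to muscle fibres. The vector field gives AAV6:LacZ-shRNA for the control group while the sample titles call it an empty vector, so the muscles are called control here.

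In this route BCAT2 first moves the amino group of a branched-chain amino acid to a keto acid acceptor inside the mitochondrion. The branched-chain keto acid dehydrogenase complex, built from E1 alpha, E1 beta, E2 and E3 subunits, then commits the carbon skeleton to oxidation. Phosphorylation of E1 alpha by the kinase BCKDK slows the complex, and the phosphatase PPM1K reverses it. After that step leucine, isoleucine and valine are broken down by partly separate sets of enzymes to acetyl-CoA, ketone body precursors and propionyl-CoA.

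The knockdown was read from Yap1, with 31.8 ± 7.80 CPM (TMM-scaled counts relative to library size, SD, n = 3) in Yap-shRNA muscles and 68.3 ± 2.96 CPM (SD, n = 3) in control muscles. The groups did not overlap, as in 2.71% of all genes on the lower side, and the log2 fold change of -1.10 (SE 0.16) had an adjusted p of 0.436 in edgeR's quasi-likelihood fit, while DESeq2 and edgeR's likelihood ratio test called it. Library totals ran from 11987167 to 12710393 counts. Fast fibre markers summed to 133010 to 161850 CPM and slow or oxidative fibre markers to 346 to 494 CPM over the 6 libraries, with all 15 of these genes in the table. Myh2 made up most of the slow sum (260 to 415 CPM). Myl2 was at 1.23 to 2.76 CPM in control and 3.27 to 3.99 CPM in Yap-shRNA muscles, without overlap, as in 2.56% of all genes on the higher side. The groups overlapped in the rest of the 15. In 2 libraries, control 1 and Yap-shRNA 3, the summed tendon markers (7 of 8 in the table) were at 690.2 and 568 CPM, against 131 to 183 CPM in the other 4. The 6 liver markers summed to 406 CPM in control 3 and to 0.399 to 48.1 CPM elsewhere. Of 7 adipocyte markers Fabp4 made up most of the sum (205 to 258 CPM), and the other 6 were all highest in Yap-shRNA 3, such as Adipoq at 16.3 CPM against 1.59 to 4.75 CPM elsewhere and Cfd at 50.1 against 8.03 to 14.0 CPM. The sums of the 7 ranged from 242 to 272 CPM in control and 235 to 300.5 CPM in Yap-shRNA muscles, and those of macrophage markers (10 of 10) from 101 to 237 CPM and 173 to 222 CPM. Each macrophage marker had a log2 fold change above 0, from 0.090 (Cd14) to 0.72 (Cd68), where 48.9% of all genes did. Cd163 was at 2.93 to 6.07 CPM in control and 6.60 to 7.34 CPM in Yap-shRNA muscles, without overlap. No macrophage marker had an adjusted p under 0.05 in edgeR's quasi-likelihood fit.

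None of the 10 genes differed between the groups beyond the spread between muscles. In edgeR's quasi-likelihood test over all 13226 genes with Benjamini-Hochberg adjustment, 0 of the 10 passed the threshold of 0.05, where 0% of all genes did. At an unadjusted p under 0.05 there were again 0 of the 10, against 1.75% of all genes, and 0 of the 10 passed by DESeq2 or edgeR's likelihood ratio test, which each called 0.0378% of all genes. The log2 fold changes lay between -0.077 (Dbt) and 0.11 (Bckdha), with a median of -0.010 against -0.0029 for all genes. In each of the 10 genes the CPM values of the 2 groups overlapped, whereas in 5.27% of all genes they did not. The 95% intervals of the 10 differences ran at the widest from 0.712-fold (lower bound for Hibch) to 1.35-fold (upper bound for Bcat2), so changes as large as that of Yap1 lay outside each of them. In whole muscle, fewer cells of a type and less RNA per cell cannot be told apart. The 6 samples come from muscles of 3 animals by the design, but no label ties a number to an animal.

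**Figure D1:**
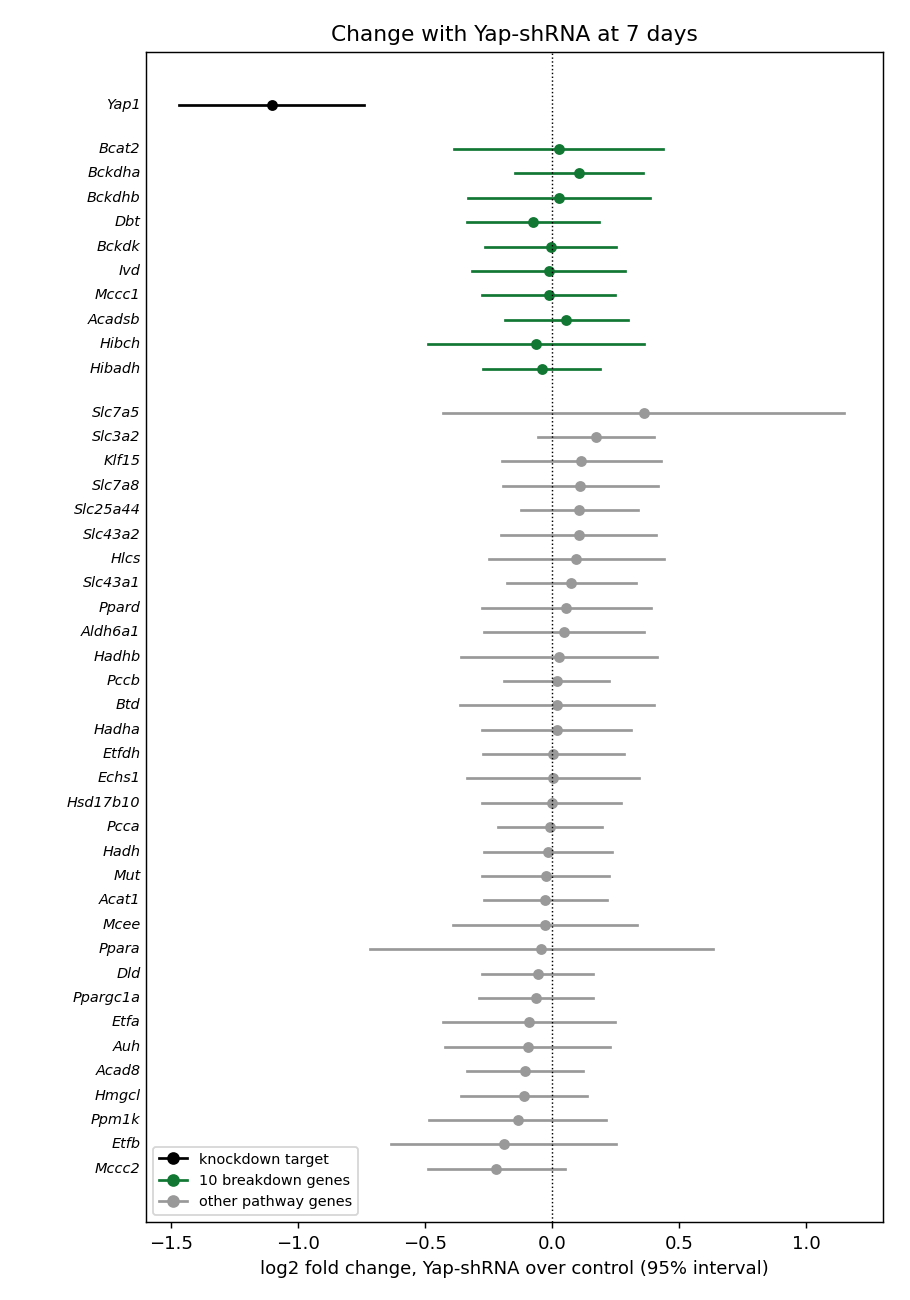
Log2 fold change of Yap-shRNA over control (x axis) with its 95% interval from edgeR's quasi-likelihood fit, for Yap1 (black), the 10 breakdown genes (green) and 32 other genes of the pathway (grey), one per line. The interval of Yap1 runs from -1.47 to -0.74, and the intervals of the 10 genes all include 0.

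The promoters of Bcat2, Bckdhb and Hibch are shown because library 2 exceeded the other libraries most in these 3 genes in control muscles, as described further on. Each is the stretch of 120 bases before the earlier of the RefSeq and GENCODE starts of the gene, 5′ to 3′ on the plus strand of GRCm38.p6, taken from RefSeq, with a GC box (the letters GGGCGG, or on the other strand of the DNA CCGCCC) in capitals.
Bcat2, chr7:45570033-45570152: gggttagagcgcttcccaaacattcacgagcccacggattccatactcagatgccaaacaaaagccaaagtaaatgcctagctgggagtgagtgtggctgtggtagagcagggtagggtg
Bckdhb, chr9:83925017-83925136: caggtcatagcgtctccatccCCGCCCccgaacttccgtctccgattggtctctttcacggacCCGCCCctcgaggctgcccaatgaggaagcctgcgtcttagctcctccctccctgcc
Hibch, chr1:52844809-52844928: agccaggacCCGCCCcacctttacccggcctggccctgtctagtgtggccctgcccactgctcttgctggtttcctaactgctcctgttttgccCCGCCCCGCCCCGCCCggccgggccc

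The stretch of Hibch held 4 matches, some of which overlap one another, that of Bckdhb 2 and that of Bcat2 0, so the GC box is not shared by the 3 genes. In the wider window of 250 bases before to 50 bases after the start, 9 of the 10 genes had 11 RefSeq promoters, of which 5, each of another gene, held a GC box on either strand, against 35.7% of 32851 promoters. The median number of CpG was 13 in these promoters and 7 in all promoters. The letters GGAATG, or on the other strand of the DNA CATTCC, the core bound by the Tead partners of Yap, were in 0 of their 11 promoter windows and in 14.7% of all windows. The letters AAGGTCA, or on the other strand of the DNA TGACCTT, the core bound by oestrogen-related receptors, were in 0 of the 11 and in 4.72% of all windows. Matches of the same motif that overlap were each counted, and Dbt was not in the table.

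Bcat2 (ENSMUSG00000030826) encodes the mitochondrial branched-chain aminotransferase, the first enzyme of the route and the form used by muscle. It lies on the plus strand of chromosome 7 of GRCm38, from 45570153 to 45589711, and its principal GENCODE transcript has 11 exons. The control muscles held 680, 988 and 756 counts and the Yap-shRNA muscles 748, 1062 and 711, or 52.9, 82.6 and 62.0 CPM against 62.8, 81.5 and 56.7 CPM. The second muscle of each group was the highest, at nearly the same level, and the others of both groups lay together below it. The means were 65.9 ± 15.2 and 67.0 ± 13.0 CPM (SD, n = 3), and the log2 fold change was 0.026 (SE 0.18, 95% interval -0.39 to 0.44, edgeR adjusted p 1.00). Exons of Bcat2 overlap 0610005C13Rik on the other strand by up to 247 bases. The cytosolic form Bcat1 was not in the table used here.

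**Figure D2:**
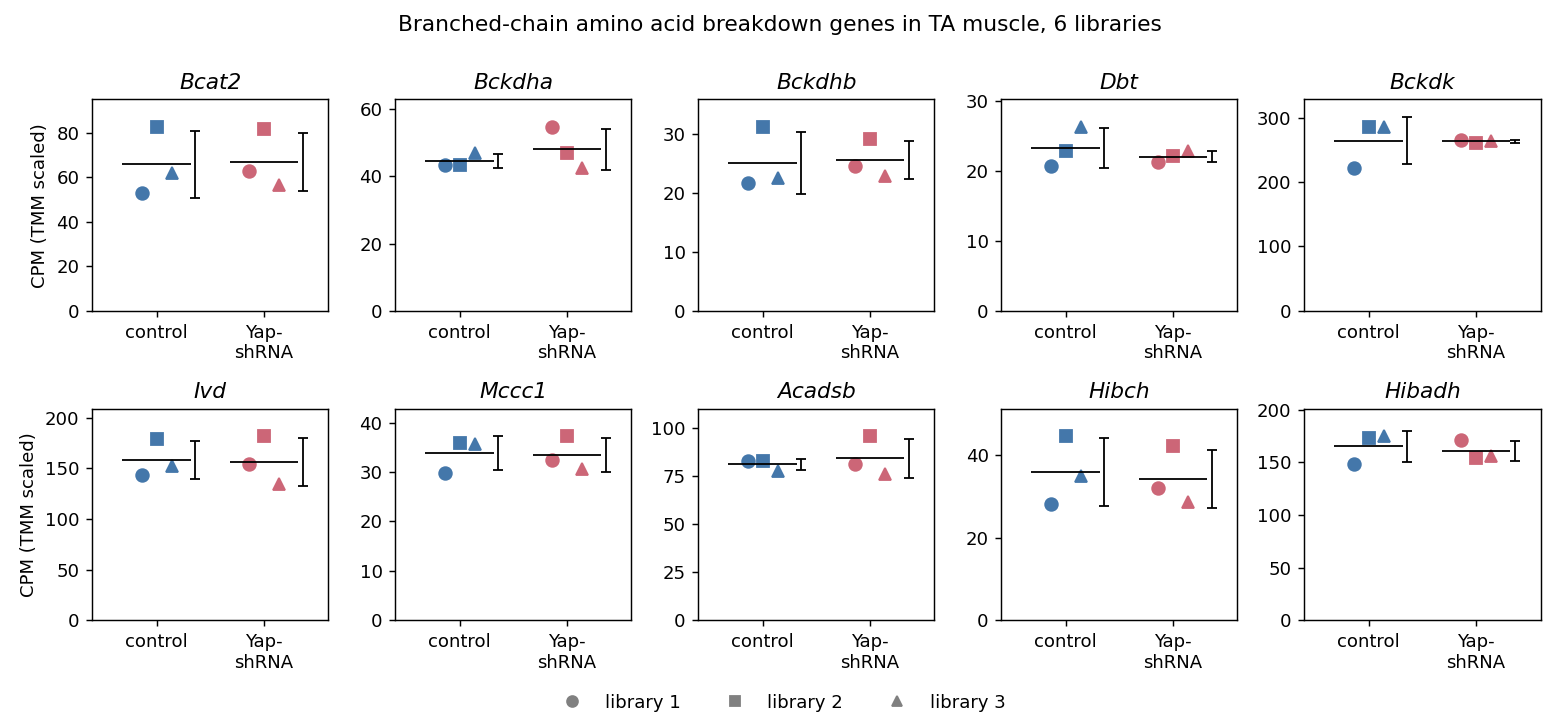
Level of each of the 10 genes (y axis, CPM after TMM scaling, from 0) in the 3 control (blue) and 3 Yap-shRNA (red) muscles. Symbols give the library number, horizontal lines the group means and bars the SD. The groups overlap in each panel, and the squares (library 2) are at the top of both groups for Bcat2, Bckdhb, Hibch, Ivd, Mccc1 and Acadsb. In control muscles this lead is slight for Mccc1 and Acadsb.

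Among the subunits of the dehydrogenase complex, Bckdhb, which encodes E1 beta (chromosome 9, 83925145 to 84124240, plus strand), had the same order of libraries as Bcat2 within each group. Its levels were 21.6, 31.1 and 22.5 CPM in control and 24.6, 29.1 and 22.8 CPM in Yap-shRNA muscles, with 277, 372, 274, 293, 379 and 286 counts behind them. The log2 fold change was 0.027 (SE 0.16, 95% interval -0.33 to 0.39).

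Bckdha, which encodes E1 alpha, the subunit that BCKDK phosphorylates, lies on the minus strand of chromosome 7 from 25629946 to 25658981. It had 43.5, 43.4 and 47.0 CPM in control and 54.7, 47.0 and 42.4 CPM in Yap-shRNA muscles. The highest and the lowest muscle were thus both in the Yap-shRNA group. Its log2 fold change of 0.11 (SE 0.11, 95% interval -0.15 to 0.36) had the smallest unadjusted p of the 10 genes, 0.37 in the edgeR fit (adjusted 1.00). Up to 488 bases of a Bckdha exon overlap an exon of B3gnt8 on the other strand, and no strand setting is given for the counting, so reads of these genes may not be separated.

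Dbt, which encodes the E2 core with its lipoyl group, lies on chromosome 3 from 116513070 to 116549981 on the plus strand. It stood at 20.7, 22.8 and 26.3 CPM in control and 21.2, 22.1 and 22.8 CPM in Yap-shRNA muscles, so that the treated muscles fell within the range of the controls. The log2 fold change was -0.077 (SE 0.12, 95% interval -0.34 to 0.18). Dld, the E3 subunit that this complex shares with other keto acid dehydrogenases, was at 281 ± 21.0 and 269.7 ± 14.6 CPM (SD, n = 3), a log2 fold change of -0.057 (SE 0.097).

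Bckdk (chromosome 7, 127904082 to 127910221, plus strand), the kinase that restrains the complex, had the highest level of the 10 genes per kilobase of exon and of coding sequence. Counts were 2850, 3410 and 3477 in control and 3153, 3393 and 3308 in Yap-shRNA muscles. Scaled, these were 222, 285 and 285 CPM against 265, 261 and 264 CPM, so that the Yap-shRNA muscles lay close together between control 1 and the other controls. The log2 fold change was -0.0061 (SE 0.11, 95% interval -0.26 to 0.25), and its sign was the opposite with limma-voom, as it is this close to 0. Ppm1k, the phosphatase, was at 13.8 ± 1.19 CPM in control and 12.6 ± 2.17 CPM after Yap-shRNA (SD, n = 3), with a log2 fold change of -0.14 (SE 0.16).

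The balance of kinase to phosphatase mRNA was read as the log2 ratio of the CPM of Bckdk to that of Ppm1k within a library, which does not depend on scaling. It was 4.15, 4.32 and 4.28 in control and 4.47, 4.12 and 4.61 in Yap-shRNA muscles. The means differed by 0.15, with SDs of 0.085 among control and 0.25 among Yap-shRNA muscles. The ratio of Bckdk to Bckdha was 2.56 ± 0.19 and 2.46 ± 0.18 (log2, SD, n = 3), that of Bckdha to Bckdhb 0.85 ± 0.32 and 0.91 ± 0.23, and that of Dbt to Bckdhb -0.094 ± 0.34 and -0.20 ± 0.20. The groups overlapped in each of these 4 ratios.

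In the leucine arm, Ivd (chromosome 2, 118861954 to 118882909, plus strand) encodes isovaleryl-CoA dehydrogenase, which acts just after the complex. It was at 143, 179 and 153 CPM in control and 154, 181 and 134 CPM in Yap-shRNA muscles. The second muscle was again the highest in both groups, and the log2 fold change was -0.014 (SE 0.13, 95% interval -0.31 to 0.29).

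Mccc1 (chromosome 3, 35959312 to 36000678, minus strand) encodes the biotin-carrying alpha subunit of methylcrotonyl-CoA carboxylase, the next enzyme of that arm. It had 29.9, 35.9 and 35.7 CPM in control and 32.5, 37.2 and 30.7 CPM after Yap-shRNA, and its log2 fold change was -0.014 (SE 0.12, 95% interval -0.28 to 0.25). Its partner Mccc2, the beta subunit, was at 33.5, 38.5 and 39.9 CPM in control and 33.7, 34.6 and 27.7 CPM in Yap-shRNA muscles. Mccc2 had the lowest log2 fold change of the pathway genes examined, -0.22 (SE 0.12), with p values of 0.097 unadjusted and 1.00 adjusted in the edgeR fit.

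Within a library the log2 ratio of Mccc1 to Mccc2 was -0.16, -0.10 and -0.16 in control and -0.055, 0.10 and 0.15 in Yap-shRNA muscles. Of the 6 ratios computed this was the only one whose groups did not overlap, with means of -0.14 ± 0.033 and 0.067 ± 0.11 (SD, n = 3), and no test was run on it. The groups overlapped in the CPM of Mccc1 and of Mccc2. The share of non-overlapping ratios over other gene pairs was not computed, and for single genes it was 5.27%. Exons of Mccc1 overlap 3 annotated genes on the other strand by up to 321 bases.

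In the isoleucine arm, Acadsb (chromosome 7, 131410601 to 131448944, plus strand) encodes the short/branched-chain acyl-CoA dehydrogenase. Its levels of 82.8, 83.1 and 77.9 CPM in control and 81.3, 95.8 and 76.1 CPM in Yap-shRNA muscles gave a log2 fold change of 0.055 (SE 0.11, 95% interval -0.19 to 0.30). Yap-shRNA 2 stood above the other 5 libraries, which lay within 76.1 to 83.1 CPM. Acad8, the acyl-CoA dehydrogenase of the valine arm, had a log2 fold change of -0.11 (SE 0.10) from 46.1 ± 2.35 CPM in control muscles.

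In the valine arm, Hibch (chromosome 1, 52844929 to 52920986, plus strand) encodes the hydrolase that frees 3-hydroxyisobutyrate from CoA. It was counted 361, 534 and 428 times in control and 382, 551 and 360 times in Yap-shRNA muscles, or at 28.1, 44.6 and 35.1 CPM against 32.0, 42.3 and 28.7 CPM. It had the widest interval of the 10 genes, with a log2 fold change of -0.064 (SE 0.19, 95% interval -0.49 to 0.36).

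Hibadh (chromosome 6, 52546228 to 52640389, minus strand), the dehydrogenase that acts on the freed 3-hydroxyisobutyrate, varied less, at 148, 173 and 175 CPM in control and 172, 154 and 156 CPM in Yap-shRNA muscles. Its log2 fold change was -0.041 (SE 0.10, 95% interval -0.27 to 0.19). Up to 122 bases of its exons overlap Gm24355 on the same strand. The log2 ratio of Hibch to Hibadh was -2.22 ± 0.24 in control and -2.24 ± 0.33 in Yap-shRNA muscles (SD, n = 3), and was highest in the second library of both groups (-1.95 and -1.87).

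Per kilobase of annotated exon the 10 genes spanned 23.2-fold in control muscles, from Bckdk at 71.5 ± 9.90 to Mccc1 at 3.09 ± 0.31 CPM per kilobase (SD, n = 3). Ivd (28.7 ± 3.38) and Bckdha (23.5 ± 1.08) followed Bckdk. Bcat2 (16.9 ± 3.90), Hibadh (16.2 ± 1.46), Bckdhb (13.9 ± 2.92) and Acadsb (11.3 ± 0.41) came next, each closer to its neighbour in that order than the larger of their SDs. Dbt (6.95 ± 0.84) and Hibch (5.93 ± 1.37) were likewise not separated from each other.

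Among the subunits of the complex, the E3 gene Dld was 3.24-fold above Bckdha, 5.49-fold above Bckdhb and 11.0-fold above Dbt per kilobase of exon in control muscles. Bckdk exceeded Ppm1k 31.2-fold on the same scale. The folds depended on the length used. By coding length Dld was 5.51-fold above Bckdha, 7.09-fold above Bckdhb and 11.4-fold above Dbt. Bckdk was then 17.3-fold above Ppm1k and 13.6-fold above Mccc1. Bckdk was also the highest of the 10 genes by coding length. Mccc1 (15.7 ± 1.58) was again last, but not separated from Dbt (16.1 ± 1.94 CPM per kilobase, SD, n = 3). Hibadh moved from place 5 to place 2, Acadsb from place 7 to place 4, Bckdha from place 3 to place 6 and Bcat2 from place 4 to place 5. The principal transcript is far shorter than the annotated exons for Mccc1 (2455 against 10952 bases) and Hibadh (1825 against 10179). It is nearly as long for Bckdk (3405 against 3695) and Dbt (3301 against 3348). Levels by principal transcript length were not computed, and both ends of the order may differ by it.

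**Figure D3:**
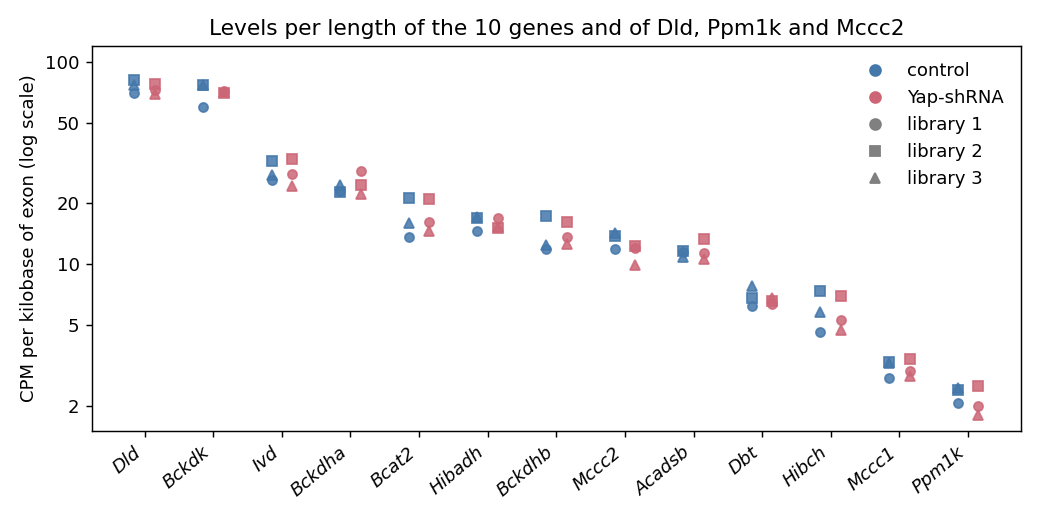
Level per length (y axis, CPM per kilobase of exon, log scale) of the 10 genes and of Dld, Ppm1k and Mccc2, ordered by the control mean, in each control (blue) and Yap-shRNA (red) library, with symbols for the library number. Bckdk and Dld lie at the top and Ppm1k and Mccc1 at the bottom, in both groups.

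In each of the 10 genes the highest and lowest library of either group lay further apart in CPM than the group means did. For 6 of them (Bcat2, Bckdhb, Hibch, Ivd, Mccc1 and Acadsb) the second library was the highest in both groups, an order found for 15.1% of all genes. In control muscles library 2 led only slightly for Mccc1 (35.87 against 35.69 CPM in control 3) and Acadsb (83.11 against 82.82 CPM in control 1). Their raw counts had the other order (429 against 435 and 994 against 1064). Bcat2 in library 2 was 1.44-fold the mean of the other control libraries and 1.37-fold that of the other Yap-shRNA libraries. The same folds were 1.41 and 1.39 for Hibch and 1.41 and 1.23 for Bckdhb. For Bckdha they were 0.959 and 0.968 and for Dbt 0.972 and 1.00, so 2 further subunit genes of the complex did not share the order. This pattern was noticed after the values were seen and has no test.

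At the other end, control 1 and Yap-shRNA 3 were the lowest libraries of their groups for 5 of the 10 genes (Bcat2, Bckdhb, Hibch, Ivd and Mccc1) and for 16 of 32 other pathway genes, against 14% of all genes. They are the 2 libraries with high tendon markers, and Yap-shRNA 3 is also the highest in 6 of 7 adipocyte markers. Summed macrophage markers were highest there too, at 237 CPM in control 1 against 148 and 101 CPM in the other controls. In Yap-shRNA 3 they were at 222 CPM, against 173 and 205 CPM in the other Yap-shRNA muscles. The 10 genes summed to 792, 980.4 and 919 CPM in control and 899, 951 and 834 CPM in Yap-shRNA muscles, with group means of 897 ± 95.9 and 895 ± 58.7 CPM (SD, n = 3). The sum of 10 mitochondrial markers was also lowest in these libraries within their groups, at 8731 CPM in control 1 and 9117 CPM in Yap-shRNA 3, against 9454 to 10494 CPM in the other 4. The part of tendon tissue, adipocytes, macrophages or mitochondrial content in these orders was not tested. Without control 1 and Yap-shRNA 3, and likewise without the libraries numbered 2, 0 of the 10 genes passed the threshold in edgeR's quasi-likelihood test, and medians of their log2 fold changes were -0.020 and -0.0050.

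As a share of the mitochondrial marker sum, the summed level of the 10 genes was 9.08, 9.34 and 9.18% in control and 9.49, 10.1 and 9.15% in Yap-shRNA muscles. The highest share was 1.11 times the lowest, where the sums themselves differed by up to 1.24 times. Relative to the mitochondrial marker sum, library 2 was at 1.28 times the mean of the other control libraries and 1.34 times that of the other Yap-shRNA libraries for Bcat2, at 1.27 and 1.37 times for Hibch, and at 1.26 and 1.21 times for Bckdhb. For Ivd these folds were 1.08 and 1.24, for Mccc1 0.978 and 1.16, and for Acadsb 0.918 and 1.20, so in control muscles Mccc1 and Acadsb were below 1 on this scale. The log2 fold changes of the 10 mitochondrial markers had a median of -0.051, against -0.0029 for all genes. Of these markers 0 of 10 were above 0, where 48.9% of all genes were, and 0 of 10 passed the threshold, where 0% did. Their sum was 9747 ± 912 CPM in control and 9349 ± 201 CPM in Yap-shRNA muscles (SD, n = 3). The shares above depend on this sum as well as on the 10 breakdown genes.

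**Figure D4:**
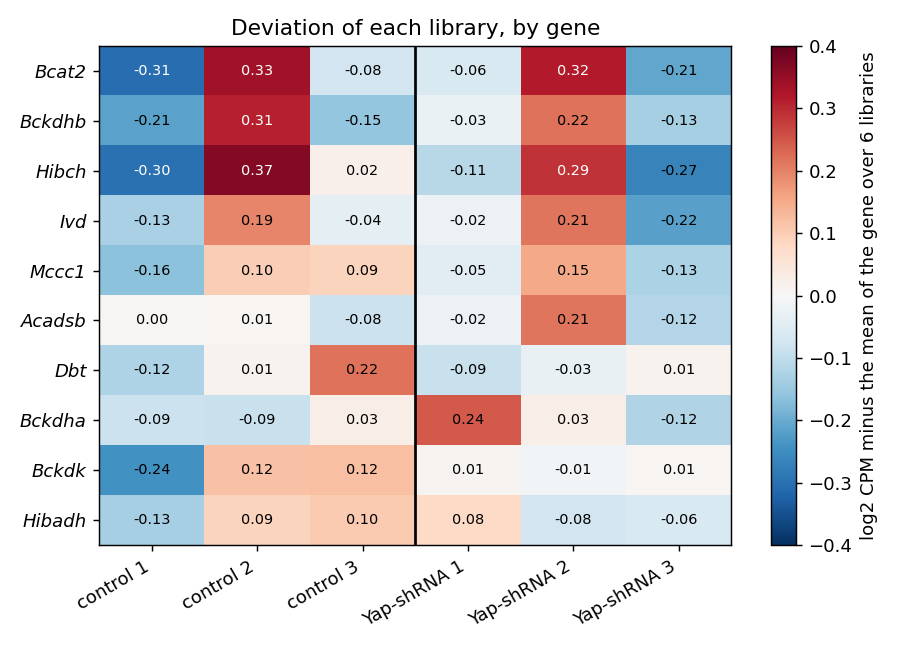
Log2 CPM minus the mean of the gene over the 6 libraries, for the 10 genes (rows) in each library (columns, control left of the line and Yap-shRNA right), with the value in each cell. Bcat2, Bckdhb, Hibch, Ivd, Mccc1 and Acadsb are highest in both libraries numbered 2, in control muscles only slightly for Mccc1 and Acadsb.

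**Figure D5:**
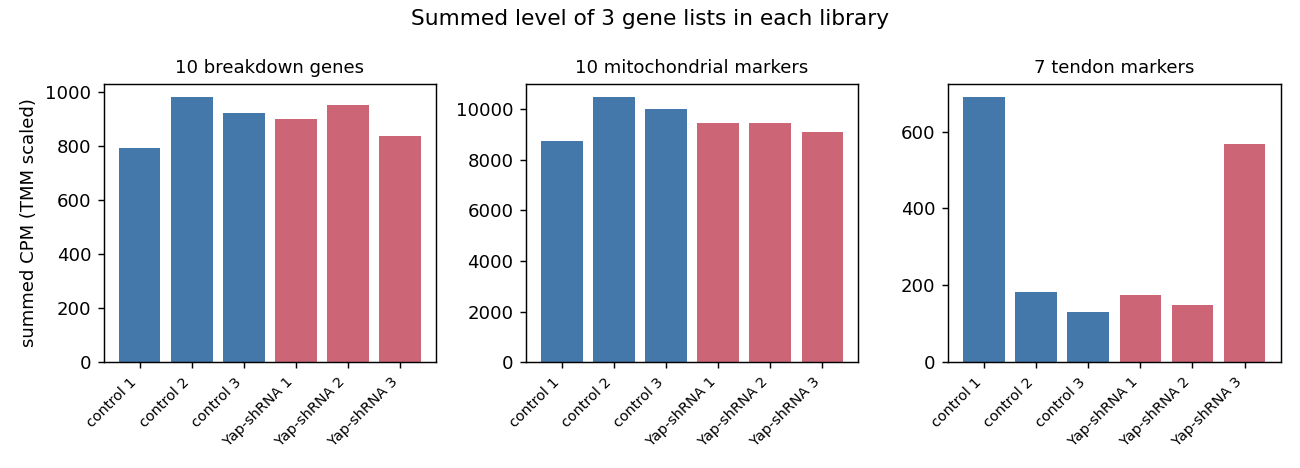
Summed CPM (y axis, from 0) of the 10 breakdown genes, of 10 mitochondrial markers and of 7 tendon markers in each library (control blue, Yap-shRNA red). Control 1 and Yap-shRNA 3 have the highest tendon sums and, within their groups, the lowest sums of the other lists.

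The other genes of the pathway were read from a list of transporters, shared enzymes, cofactor enzymes and regulators. Of 34 symbols 32 were in the table, the exceptions being Bcat1 and Mmut, whose gene was present as Mut. Of the 32 genes, 0 passed the threshold of edgeR's quasi-likelihood test and 0 had an unadjusted p under 0.05. Their log2 fold changes had a median of 0.00076, 16 were above 0, where 48.9% of all genes were, and the groups overlapped in all 32.

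The 6 transporter genes had log2 fold changes of 0.074 to 0.36, with overlapping groups. Slc7a5, the light chain of the large neutral amino acid exchanger, was at 5.29, 2.09 and 3.12 CPM in control and 3.86, 3.46 and 6.22 CPM after Yap-shRNA, with a log2 fold change of 0.36 (SE 0.35). The highest muscles of both groups were the libraries with high tendon markers. Its log2 fold change was 0.79 without control 1, 0.098 without control 2 and 0.057 without Yap-shRNA 3. Its partner Slc3a2, the heavy chain, had a log2 fold change of 0.17 (SE 0.10) from 38.5 ± 2.49 CPM in control muscles. Klf15, a transcription factor known to promote expression of Bcat2 and other amino acid catabolism genes, had 0.11 (SE 0.14), and Slc25a44, the mitochondrial branched-chain amino acid carrier, 0.11 (SE 0.10).

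At the low end, next to Mccc2 and Ppm1k, stood Etfb, a subunit of the flavoprotein that takes electrons from IVD, ACADSB and ACAD8. It was at 44.5, 82.7 and 58.6 CPM in control and 59.5, 53.4 and 49.8 CPM in Yap-shRNA muscles, so that control 2 alone stood above the others. Its log2 fold change of -0.19 (SE 0.20) became 0.073 without control 2. The enzymes that take the products of isoleucine and valine on from propionyl-CoA (Pcca, Pccb, Mcee and Mut) had log2 fold changes of -0.028 to 0.018.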

How the data were processed

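The deposited table holds raw counts of reads per gene, without normalisation by the authors, for 6 libraries of polyadenylated RNA from whole TA muscles. The submitters' processing notes name bcl2fastq 2.20.0.422 and GRCm38. The aligner, counter, annotation and strand setting are not given in the sources used here. No gene had fewer than 60 reads over the 6 libraries. The libraries put 253 to 3477 counts on each of the 10 genes, and p-values and intervals measure the spread between these muscles.

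Counts were scaled by TMM and tested over all genes with edgeR 4.0.16 (quasi-likelihood, group as the only term, Benjamini-Hochberg, threshold 0.05) in R 4.3.3. Standard errors were the log2 fold change over the square root of F. Scripts were tested on simulated data. Alternatives were DESeq2 1.42.0, the likelihood ratio test, limma 3.58.1 (voom), other scalings, a minimum of 10 counts, a replicate block and left-out libraries. Log2 CPM used a prior count of 2. Positions and lengths came from GENCODE M21 on GRCm38. Replicates 1 to 3 follow the titles. All 6 columns were matched to samples. The chi-square of counts between libraries of a group, over its degrees of freedom, was 7.62 to 21.4, so none was a repeat of another.

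The genes and lists were chosen with earlier results of these data known. Named were Yap1, the 10 genes, Dld, Ppm1k, Mccc2, Acad8 and the 3 highest and 3 lowest of the other pathway genes. Slc25a44, Pcca, Pccb, Mcee, Mut, Echs1 and Aldh6a1 were named after their values were seen.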

Additional observations from a re-analysis of the deposited data

How the results depend on the processing

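Under each of the alternatives run, 0 of the 10 genes passed the threshold, leaving out single libraries included (0 to 0). Over all genes the quasi-likelihood test gave 0 calls (232 at an unadjusted p under 0.05), DESeq2 gave 5 and the likelihood ratio test 5. Leaving out each library gave from 0 to 1 gene, the latter (Mir155hg) without Yap-shRNA 3. Chosen after seeing the data, leaving out both libraries high in tendon markers gave 3 (Ankrd1, Rrad and Mir155hg, at 0 of the 10 genes), and leaving out both libraries numbered 2 gave 0. Yap1 had a log2 fold change of -1.10 both with DESeq2 (adjusted p 5.85e-07) and with the likelihood ratio test (2.22e-06), against an adjusted p of 0.436 by the quasi-likelihood test, and from -1.29 to -0.93 without each library.

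As the changes of the 10 genes were close to 0, their sign was not fixed: of 150 gene and setting combinations 123 kept it and 27 did not, 20 of them with a library left out. Bckdk was at 0.0036 with limma-voom, 0.0032 with the replicate block and 0.059 without the libraries numbered 2. Without the latter Acadsb was at -0.030, Hibadh at 0.020 and Etfb at 0.085. Without the libraries high in tendon markers Bcat2 was at -0.0024 and Ivd at 0.017. With single libraries left out, log2 fold changes spanned -0.14 to 0.22 for Bcat2, 0.0031 to 0.19 for Bckdha, -0.080 to 0.21 for Bckdhb, -0.15 to 0.019 for Dbt and -0.12 to 0.053 for Bckdk. They spanned -0.13 to 0.084 for Ivd, -0.098 to 0.045 for Mccc1, -0.047 to 0.12 for Acadsb, -0.24 to 0.12 for Hibch, -0.11 to 0.00097 for Hibadh and -0.38 to 0.073 for Etfb. The causes were not tested.

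The labels do not tie the replicate numbers to animals, and same-numbered muscles deviated from their group means with correlations across genes of -0.065, 0.20 and -0.32 for numbers 1 to 3. The replicate block gave 0 calls. It took the standard error of Bcat2 from 0.18 to 0.11, of Bckdhb from 0.16 to 0.11 and of Hibch from 0.19 to 0.12. These 3 genes stood out for a high library 2 in both groups, which such a block absorbs. Their fall therefore tells nothing about pairing. The standard error rose for Hibadh (0.102 to 0.112) and Bckdha (0.112 to 0.116) and fell for the rest. Its median over the 10 genes went from 0.12 to 0.11 (0.16 to 0.16 over all genes).

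By coding length the control levels were 214 (Bckdk), 164 (Hibadh), 124 (Ivd), 62.7 (Acadsb), 55.9 (Bcat2), 33.4 (Bckdha), 31.1 (Hibch), 25.9 (Bckdhb), 16.1 (Dbt) and 15.7 (Mccc1) CPM per kilobase. The 95% intervals are not adjusted for the number of genes, and do not mark a limit of detection: Yap1, whose interval excludes 0, was not called by the quasi-likelihood test.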

Other observations

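Among the other pathway genes, 5 (Dld, Pccb, Aldh6a1, Echs1 and Mcee) had library 2 highest and control 1 and Yap-shRNA 3 lowest in their groups, as Bcat2 and Hibch did. The share of all genes with this joint order was not computed. Library 2 was the highest in both groups for 6 of the 32 other pathway genes (18.8%), near the 15.1% of all genes. Echs1, the enoyl-CoA hydratase shared by the isoleucine and valine arms, was at 97.4, 142 and 114 CPM in control and 116, 134 and 104 CPM in Yap-shRNA muscles. Mcee, the methylmalonyl-CoA epimerase, was at 28.0, 42.9 and 34.5 CPM and at 33.5, 39.2 and 30.6 CPM. Aldh6a1, the last enzyme of the valine arm before propionyl-CoA, was at 115, 125 and 121 CPM in control and 117, 153 and 103 CPM in Yap-shRNA muscles, so that library 2 exceeded the mean of the others by more in the Yap-shRNA group (log2 0.47) than in the control group (log2 0.084). These genes were picked after their values were seen, and the differences were not tested. Exons of Aldh6a1 overlap Bbof1 by up to 817 bases and those of Echs1 overlap Paox by up to 142 bases, on the other strand.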
